A study of Mus musculus with 6 samples.

Results

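The 10 genes described here encode the insulin-like growth factors Igf1 and Igf2, their receptors Igf1r and Igf2r, and the binding proteins Igfbp2, Igfbp3, Igfbp4, Igfbp5, Igfbp6 and Igfbp7. They were taken by symbol from the 55487 genes of the deposited tables, and all 10 had enough counts for the test, among 14604 tested genes. Expression was measured by stranded mRNA sequencing in chondrocytes from the knee cartilage of C57B/6 mice, grown in medium with fetal bovine serum. In 3 libraries (M-LPS-EV) the cells had received extracellular vesicles, the small membrane particles that cells shed, from macrophages stimulated with LPS, a component of bacterial cell walls. In the other 3 libraries (M-EV) the vesicles came from macrophages without that stimulus. Both groups received vesicles at 10 µg/ml of protein for 24 h, so each difference below is between vesicle types; cells without vesicles were not analysed here. The labels give neither the age and number of the mice nor the source of the macrophages, and do not say that replicates were separate cultures or animals. The p-values therefore measure the spread between these libraries, which may be technical.

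Insulin-like growth factors are small secreted relatives of insulin that stimulate chondrocytes to divide and to make cartilage matrix. They act through the tyrosine kinase receptor Igf1r, while Igf2r carries Igf2 to lysosomes for breakdown. Secreted binding proteins hold the ligands, prolong their life in the tissue and limit or aid their access to the receptor, and proteases that cut these proteins set the ligands free. Igf2 is an imprinted gene, expressed mainly from the paternal chromosome, and is abundant in fetal and young tissues. In mice Igf2r is imprinted as well and is expressed mainly from the maternal chromosome.

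Chondrocytes given M-LPS-EV had lower levels of Igf2 and of the binding protein Igfbp5 and a higher level of the binding protein Igfbp7 than chondrocytes given M-EV. Igfbp3 and Igf1, both scarce, were higher as well. Igf2r was slightly lower, Igf1r was slightly higher with a call close to the threshold, and Igfbp2, Igfbp4 and Igfbp6 were not called. In all, 4 of the 10 genes were called higher and 3 lower (edgeR's quasi-likelihood test, two-sided, Benjamini-Hochberg adjusted p below 0.05 over all tested genes). Over all tested genes 31.6% were called, 16.4% higher and 15.2% lower. In CPM, counts scaled to library sizes adjusted by TMM (edgeR's correction for library composition), 8 of the 10 genes showed no overlap between the groups, beside 42.2% of all tested genes. The median log2 fold change of M-LPS-EV over M-EV was -0.0053 over the 10 genes and 0.0028 over all tested genes. Against a change of at least 1.2-fold, the test called 2 of the 10 genes, Igfbp5 and Igfbp7, beside 1137 of all 14604 tested genes.

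**Figure D1:**
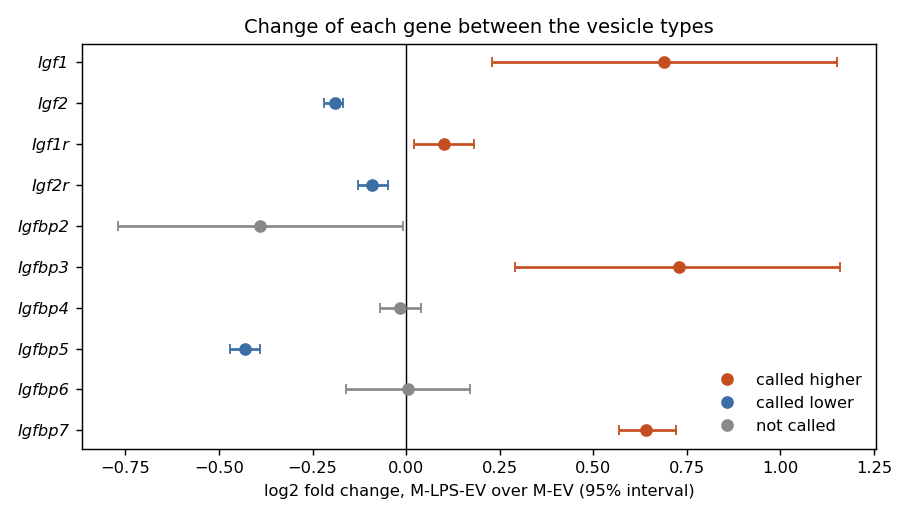
Log2 fold change of M-LPS-EV over M-EV (horizontal axis) for the 10 genes (vertical axis), as edgeR estimates with 95% intervals, coloured by call. Igf1, Igf1r, Igfbp3 and Igfbp7 lie to the right of 0, Igf2, Igf2r and Igfbp5 to the left, and the intervals of Igfbp4 and Igfbp6 span 0.

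The start sites are shown for the genes on which the results turn: Igf2, at the start of its most abundant transcript, and the binding protein genes Igfbp5 and Igfbp7, which changed in opposite directions. They are RefSeq sequences of GRCm38.p6 (mm10), 250 bases before to 50 after the annotated start, written 5′ to 3′ on the gene's own strand, which is the minus strand for all 3. Igf2 is at chr7:142657447-142657746, Igfbp5 at chr1:72874816-72875115 and Igfbp7 at chr5:77407996-77408295. Capitals mark matches on either strand to GGG and CC with any 5 bases between them, the outline of a kappaB site, the class of motif that NF-kB binds; matches may overlap.
Igf2: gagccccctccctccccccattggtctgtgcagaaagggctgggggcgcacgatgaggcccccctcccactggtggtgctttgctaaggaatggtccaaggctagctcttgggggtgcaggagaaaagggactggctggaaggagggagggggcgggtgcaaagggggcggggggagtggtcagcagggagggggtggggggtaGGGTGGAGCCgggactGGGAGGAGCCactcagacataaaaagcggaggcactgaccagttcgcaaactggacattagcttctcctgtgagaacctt
Igfbp5: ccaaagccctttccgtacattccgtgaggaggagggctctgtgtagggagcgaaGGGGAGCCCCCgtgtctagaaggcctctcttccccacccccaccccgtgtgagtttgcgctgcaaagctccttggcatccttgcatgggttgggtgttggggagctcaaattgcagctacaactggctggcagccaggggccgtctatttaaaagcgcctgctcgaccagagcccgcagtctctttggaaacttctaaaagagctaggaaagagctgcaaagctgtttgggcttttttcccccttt
Igfbp7: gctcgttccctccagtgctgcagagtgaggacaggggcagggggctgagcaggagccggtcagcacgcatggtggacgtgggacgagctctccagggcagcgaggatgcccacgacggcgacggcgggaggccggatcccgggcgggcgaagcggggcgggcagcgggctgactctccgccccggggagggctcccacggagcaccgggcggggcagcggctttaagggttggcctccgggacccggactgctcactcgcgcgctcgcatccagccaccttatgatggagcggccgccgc
Igf2 holds 2 matches and Igfbp5 2 overlapping ones, while these letters are not in the Igfbp7 window. The outline is common: 50.8% of the 32851 promoter windows of the same length hold it. None of the 3 windows holds TGANTCA (an AP-1 outline, in 7.81% of all windows), TTGCNNAA (a C/EBP outline, in 10.8%) or TATAAA (the TATA box, in 13.6%) on either strand. A match describes the letters and does not show a bound site. Among windows not printed, those of Igfbp3, Igf1 and Igf1r, genes called higher, held 2, 1 and 0 matches to the kappaB outline. That of Igf2r, called lower, held 3, and those at the other Igf2 starts held 3, 0 and 0. Of the genes not called, the windows of Igfbp2 held 2 and 0, that of Igfbp4 1 and that of Igfbp6 0. TGANTCA was in the Igf1 window and in 1 window of Igfbp2, and TATAAA in those of Igfbp4 and Igfbp6, on either strand.

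Library totals ran from 20239626 to 23539911 expected counts with M-LPS-EV and from 22274687 to 25712667 with M-EV. Libraries of 1 group differed by more than sampling noise (mean chi-square per degree of freedom 1.66 to 2.78), so no library was a copy of another. All 10 chondrocyte markers were expressed, at summed levels of 108438 to 110767 CPM with M-LPS-EV and 126745 to 127794 CPM with M-EV (marker sums are scaled to the plain library totals); 9 were called lower with M-LPS-EV and none higher. In bulk RNA, fewer cells of a type and less RNA per cell cannot be told apart. Of 11 fibroblast and synovial markers 3 were called higher and 4 lower, with sums of 2286 to 2337 CPM with M-LPS-EV and 2208 to 2224 CPM with M-EV. Macrophage markers summed to 34.0 to 39.0 CPM with M-LPS-EV and 26.2 to 28.9 CPM with M-EV; of 9 tested among 15, 4 were called higher and none lower. Beside these marker counts, 16.4% of all tested genes were called higher and 15.2% lower. The part of these cell types in the results below was not tested.

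Of the ligands, Igf2 (ENSMUSG00000048583, chromosome 7 from 142650766 to 142666816, minus strand, mm10) dominated. Its level was 7079, 6694 and 6975 TPM (transcript abundance per length, scaled to the library) with M-LPS-EV, against 7969, 7912 and 8037 TPM with M-EV. All 3 M-LPS-EV libraries lay below all 3 M-EV libraries. Igf2 took 0.993% to 1.02% of all counts with M-LPS-EV and 1.13% to 1.14% with M-EV. The log2 fold change by edgeR was -0.19 ± 0.013 (SE, 95% interval -0.22 to -0.17, adjusted p = 9.2e-12), which is 0.875-fold. Against a change of at least 1.2-fold Igf2 did not pass the edgeR test (adjusted p = 1).

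Igf1 (ENSMUSG00000020053, chromosome 10 from 87858265 to 87937042, plus strand), the ligand that mediates much of the growth-promoting action of growth hormone, had the lowest mean TPM of the 10 genes in both groups. With M-EV its TPM range overlapped that of Igfbp3. Igf1 had 40, 53 and 40 counts with M-LPS-EV, against 30, 28 and 30 counts with M-EV. In CPM the groups did not overlap (2.03 ± 0.190 CPM with M-LPS-EV and 1.26 ± 0.0770 CPM with M-EV, mean ± SD, n = 3 each), whereas in TPM they did (1.21 to 1.62 TPM with M-LPS-EV and 0.78 to 1.25 TPM with M-EV). The log2 fold change by edgeR was 0.69 ± 0.22 (SE, adjusted p = 0.019). The call ended under 7 of 17 alternatives, among them DESeq2 (adjusted p = 0.073), an offset for effective transcript length (0.51, edgeR adjusted p = 0.20), leaving out M-LPS-EV replicate 2 (0.61, edgeR adjusted p = 0.085) and leaving out M-EV replicate 1 (0.64, edgeR adjusted p = 0.066). Macrophages also express Igf1, and their markers, named here after their values were seen, did not move together. Lyz2 made up most of the marker sum, at 20.04 to 24.13 CPM with M-LPS-EV and 14.71 to 16.36 CPM with M-EV. Adgre1, Cd14, Itgam and Lyz2 were called higher (2.83-fold, 2.27-fold, 1.75-fold and 1.44-fold by edgeR). Cd68, Csf1r, Mrc1, Tyrobp and Fcgr3 were not called, the last at 0.722-fold. Too scarce for the test, C1qa had 1, 0 and 1 counts with M-LPS-EV and 8, 14 and 15 with M-EV, and C1qb had 2, 3 and 0 with M-LPS-EV and 9, 15 and 10 with M-EV. On the TPM scale Igf2 stood 4132 to 5851 times above Igf1 with M-LPS-EV and 6429 to 10143 times above it with M-EV.

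**Figure D2:**
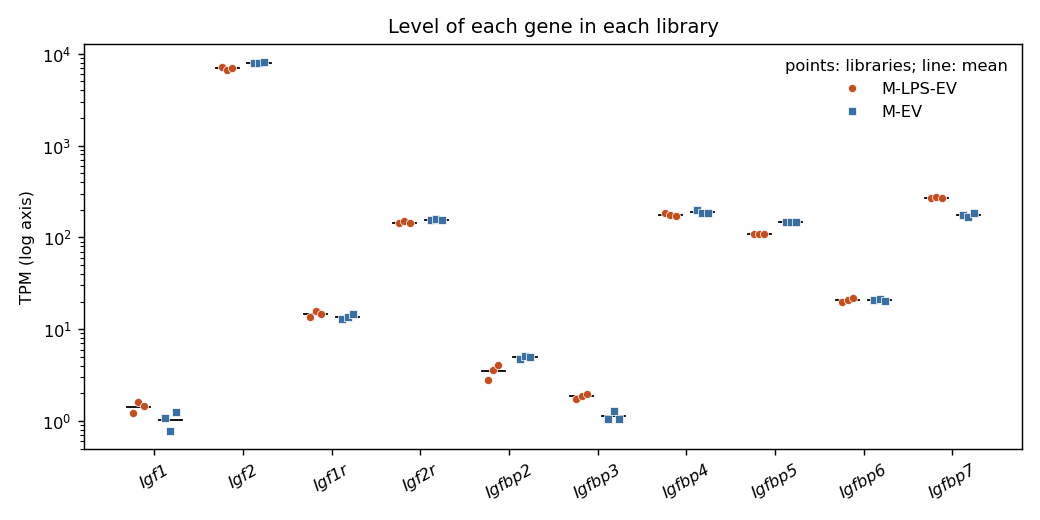
Level of the 10 genes in TPM (vertical axis, logarithmic) in each of the 6 libraries; circles are M-LPS-EV, squares M-EV and lines group means. Igf2 stands at 6694 TPM or more in every library, Igf1 and Igfbp3 lie below 2 TPM, and the groups overlap for Igf1, Igf1r and Igfbp6.

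Igf2 RNA was assigned to 9 annotated transcripts that begin at different places. Igf2-201, whose first base at 142657496 is the start of the Igf2 window printed above, held 46.1% to 47.9% of the gene's TPM with M-LPS-EV and 47.0% to 48.1% with M-EV. Its level was 3241 ± 31.3 TPM with M-LPS-EV and 3807 ± 30.9 TPM with M-EV. Igf2-204, which begins upstream at 142661305, stood at 592 ± 7.48 TPM with M-LPS-EV and 680 ± 16.1 TPM with M-EV, and Igf2-205, from 142659489, at 390 ± 6.89 TPM with M-LPS-EV and 425 ± 19.1 TPM with M-EV. The lower level of Igf2 with M-LPS-EV was thus seen at each of these 3 starts, with no overlap of the groups. Igf2-203, from the most upstream start at 142666816, varied widely, at 162 ± 96.3 TPM with M-LPS-EV and 274 ± 79.3 TPM with M-EV, and the groups overlapped.

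Igf2-208, a transcript of 958 bases with no annotated coding sequence that lies near the 3′ end of the gene, held 34.9% to 35.2% of Igf2 TPM with M-LPS-EV and 33.3% to 34.3% with M-EV. Because it is short, it weighs more in TPM than in counts. Without such non-coding transcripts Igf2 stood at 4444 ± 137 TPM with M-LPS-EV and 5215 ± 76.7 TPM with M-EV. The usage test, which compares each transcript's change with that of its gene, did not call Igf2 (edgeR diffSpliceDGE, adjusted p = 1). Of the 10 genes 2 could enter that test, Igf2 and Igfbp4, and 0 were called (unadjusted p = 0.86 and 0.83; limma diffSplice adjusted p = 0.54 for Igf2), beside 0.157% of 6375 tested genes. With the minor transcripts included Igf2 was called (edgeR adjusted p = 0.0057). Among these Igf2-202 was assigned 358, 274 and 2707 counts with M-LPS-EV and 229, 0 and 0 with M-EV, so that 1 library stood apart. The part of Igf2-202 in that call was not tested. The antisense gene Igf2os overlaps Igf2 on the other strand. It had 688 to 838 counts with M-LPS-EV and 849 to 993 with M-EV, against 206636 to 292574 for Igf2 in the 6 libraries. These counts are not scaled to the library totals, so they do not compare the groups. The strand setting of the counting is not given here, so reads of genes that overlap on opposite strands cannot be told apart.

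**Figure D3:**
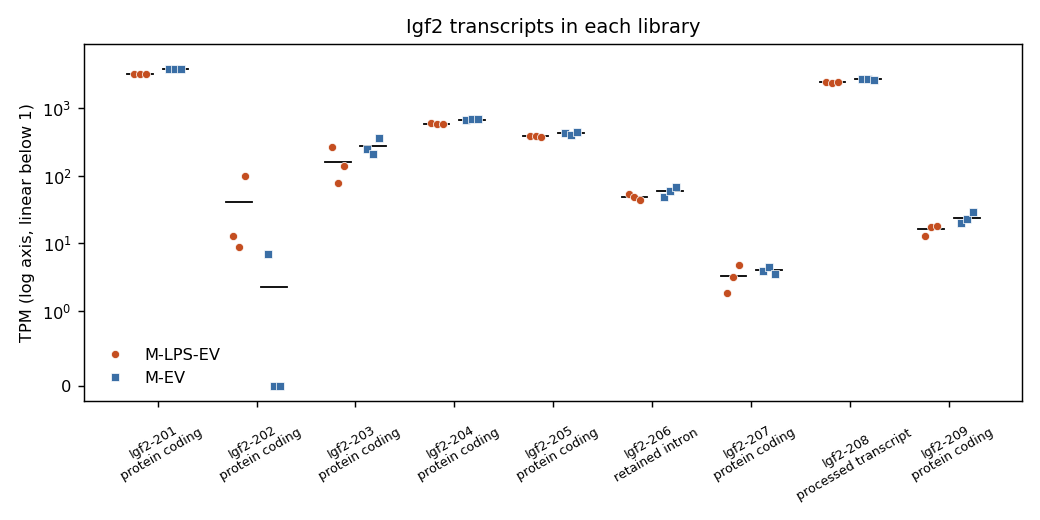
TPM of the 9 annotated Igf2 transcripts (vertical axis, logarithmic and linear below 1) in each library; circles are M-LPS-EV, squares M-EV and lines group means, and the type is given under each name. Igf2-201 and the non-coding Igf2-208 lead in every library, and Igf2-202 spans 0 to 99.8 TPM.

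Of the receptors, Igf2r (ENSMUSG00000023830, chromosome 17 from 12682406 to 12769664, minus strand) was the more abundant. It stood at 143.5, 149.1 and 141.8 TPM with M-LPS-EV, against 155.7, 156.8 and 153.8 TPM with M-EV. The groups did not overlap, with a log2 fold change by edgeR of -0.09 ± 0.020 (SE, adjusted p = 9.8e-04), 0.939-fold. Airn, the antisense RNA that overlaps the start of Igf2r and takes part in its imprinting, had 211 to 251 counts with M-LPS-EV and 272 to 319 with M-EV. Igf2r had 14529 to 17622 counts with M-LPS-EV and 17184 to 19624 with M-EV. These counts, too, are not scaled to the library totals and do not compare the groups.

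Igf1r (ENSMUSG00000005533, chromosome 7 from 67952827 to 68233668, plus strand) stood at 13.7, 15.9 and 14.6 TPM with M-LPS-EV and at 12.9, 13.7 and 14.5 TPM with M-EV. The groups overlapped on this scale. In CPM they lay just apart, at 79.6 to 82.4 CPM with M-LPS-EV and 72.6 to 79.1 CPM with M-EV. The log2 fold change by edgeR was 0.10 ± 0.037 (SE, 95% interval 0.021 to 0.18, adjusted p = 0.047), 1.07-fold. The call ended under 15 of 18 alternatives, among them each left-out library except M-EV replicate 3, with adjusted p-values from 0.022 to 0.22 over the 6 left-out libraries. Its ratio to Igf2r in TPM, taken as Igf2r over Igf1r, was 9.85 ± 0.549 with M-LPS-EV and 11.4 ± 0.741 with M-EV (exact two-sided permutation p = 0.10, the smallest that 3 against 3 libraries allow).

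Of the binding proteins, Igfbp5 (ENSMUSG00000026185, chromosome 1 from 72857932 to 72874884, minus strand), a matrix-bound protein that holds ligand in cartilage and bone, was lower with M-LPS-EV. It stood at 110.1, 108.0 and 107.9 TPM with M-LPS-EV, against 147.8, 148.4 and 147.9 TPM with M-EV, so the groups were far apart compared with the spread inside each. In counts it had 7836, 8564 and 7385 with M-LPS-EV and 12487, 10897 and 11051 with M-EV. The log2 fold change by edgeR was -0.43 ± 0.020 (SE, adjusted p = 3.0e-15), 0.740-fold, and it lay between -0.45 and -0.43 over 18 alternatives, all of which kept the call. Nearly all of its RNA, 99.5% or more in each library, was assigned to the full-length coding transcript Igfbp5-201.

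Igfbp7 (ENSMUSG00000036256, chromosome 5 from 77349240 to 77408041, minus strand), a relative with low affinity for the ligands that is also secreted into the matrix, changed the other way. It stood at 266.9, 277.2 and 267.5 TPM with M-LPS-EV, against 176.4, 165.4 and 182.7 TPM with M-EV. Every M-LPS-EV library lay above every M-EV library. The log2 fold change by edgeR was 0.64 ± 0.035 (SE, adjusted p = 8.7e-14), 1.56-fold, and it lay between 0.61 and 0.67 over 18 alternatives, all of which kept the call. The 3′ end of Igfbp7 overlaps that of Polr2b on the other strand by 85 bases.

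Igfbp3 (ENSMUSG00000020427, chromosome 11 from 7206086 to 7213923, minus strand), the main carrier of the ligands in blood, was scarce in these cells. It had 46, 53 and 51 counts with M-LPS-EV, against 33, 34 and 30 counts with M-EV, or 1.86 ± 0.115 TPM with M-LPS-EV and 1.13 ± 0.130 TPM with M-EV. The groups did not overlap, and the log2 fold change by edgeR of 0.73 ± 0.21 (SE, 95% interval 0.29 to 1.16, adjusted p = 0.010) had a wide interval. The call held under 16 of 17 alternatives and ended against a change of at least 1.2-fold (adjusted p = 0.077). Igfbp1, its neighbour 3539 bases away and not among the 10 genes, had 0 counts in every library, which allows at most 0.117 to 0.148 CPM per library by a limit of 3 counts; this limit covers counting error only.

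Igfbp2 (ENSMUSG00000039323, chromosome 1 from 72824503 to 72852474, plus strand), a binding protein of fetal and growing tissue, lies 5457 bases from Igfbp5 in the opposite orientation. It had 38, 52 and 53 counts with M-LPS-EV, against 76, 61 and 64 counts with M-EV, at 3.50 ± 0.640 TPM with M-LPS-EV and 4.94 ± 0.184 TPM with M-EV. The groups did not overlap, but Igfbp2 was not called (log2 fold change -0.39, SE 0.18, 95% interval -0.77 to -0.0094, edgeR adjusted p = 0.11). None of its 18 alternatives called it either, with the lowest adjusted p at 0.054.

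Igfbp4 (ENSMUSG00000017493, chromosome 11 from 99041244 to 99054392, plus strand), a binding protein that restrains ligand action until the protease Pappa cuts it, was abundant and not called. Its level was 193, 187 and 184 CPM with M-LPS-EV and 195, 187 and 188 CPM with M-EV, which overlap (log2 fold change -0.016, 95% interval -0.071 to 0.039, edgeR adjusted p = 0.71). In TPM the groups lay just apart, at 173 to 184 TPM with M-LPS-EV and 184 to 196 TPM with M-EV. Its transcript Igfbp4-203, of 785 bases and with no annotated coding sequence, stood at 94.4 ± 7.63 TPM with M-LPS-EV and 103 ± 7.51 TPM with M-EV. In coding transcripts alone the gene stood at 81.8 ± 3.98 TPM with M-LPS-EV and 85.4 ± 1.2 TPM with M-EV, and those groups overlapped.

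Igfbp6 (ENSMUSG00000023046, chromosome 15 from 102144362 to 102149511, plus strand), which binds Igf2 more tightly than Igf1, stood at 19.9, 20.6 and 22.1 TPM with M-LPS-EV, against 21, 21.55 and 20.39 TPM with M-EV. The groups overlapped (edgeR log2 fold change 0.0052 with SE 0.082 and adjusted p = 0.97). The 95% interval of the log2 difference ran from -0.16 to 0.17.

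On the TPM scale the order of levels was Igf2, Igfbp7, Igfbp4, Igf2r, Igfbp5, Igfbp6, Igf1r, Igfbp2, Igfbp3 and Igf1 with M-LPS-EV. With M-EV it was the same except that Igfbp4 stood above Igfbp7. The ranges of neighbours in these orders did not overlap, except those of Igfbp3 and Igf1 with M-EV (1.05 to 1.28 and 0.78 to 1.25 TPM). The place of Igfbp4 rests on its non-coding transcript: in coding transcripts alone it held 16.8% ± 0.574 of the summed Igfbp2 to Igfbp7 TPM with M-LPS-EV and 19.6% ± 0.585 with M-EV, below Igfbp5 in both groups.

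The make-up of the binding protein RNA differed between the groups. Igfbp7 held 45.6%, 47.4% and 46.4% of the summed TPM of Igfbp2 to Igfbp7 with M-LPS-EV, against 32.2%, 31.5% and 33.6% with M-EV, a difference of 14.0 percentage points. Igfbp5 held 18.8%, 18.5% and 18.7% with M-LPS-EV, against 27.0%, 28.2% and 27.2% with M-EV, a difference of -8.81 percentage points. Igfbp4 held 30.3% ± 0.962 with M-LPS-EV and 35.1% ± 0.798 with M-EV, and Igfbp6 held 3.59% ± 0.226 with M-LPS-EV and 3.90% ± 0.180 with M-EV. For Igfbp7, Igfbp5 and Igfbp4 the groups did not overlap (exact two-sided permutation p = 0.10 each, the smallest possible here); those of Igfbp6 did (exact permutation p = 0.30). Shares sum to 100%, so a rise of 1 gene lowers the share of the others.

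The summed level of the binding proteins was 582 ± 5.14 TPM with M-LPS-EV and 539 ± 11.4 TPM with M-EV (exact permutation p = 0.10). This direction depended on Igfbp7 and on the scale: without Igfbp7 the difference was -52.5 TPM, and in CPM, where the long Igfbp5 transcript weighs more, it was -77.9 CPM. Igf1 and Igf2 together stood at 11.9 ± 0.373 times the binding protein sum with M-LPS-EV and 14.8 ± 0.243 times with M-EV, with no overlap (exact permutation p = 0.10). The difference in this ratio, too, rested on Igfbp7, and its size on the scale. Without Igfbp7 the ratio was 22.2 ± 0.406 with M-LPS-EV and 21.9 ± 0.403 with M-EV, where the groups overlapped. In CPM the ratio was 14.1 ± 0.256 with M-LPS-EV and 14.5 ± 0.0742 with M-EV, a smaller difference with no overlap. In protein-coding transcripts only it was 9.13 ± 0.428 with M-LPS-EV and 12.0 ± 0.0292 with M-EV, with no overlap. RNA levels do not give the amount of secreted protein or of free ligand.

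**Figure D4:**
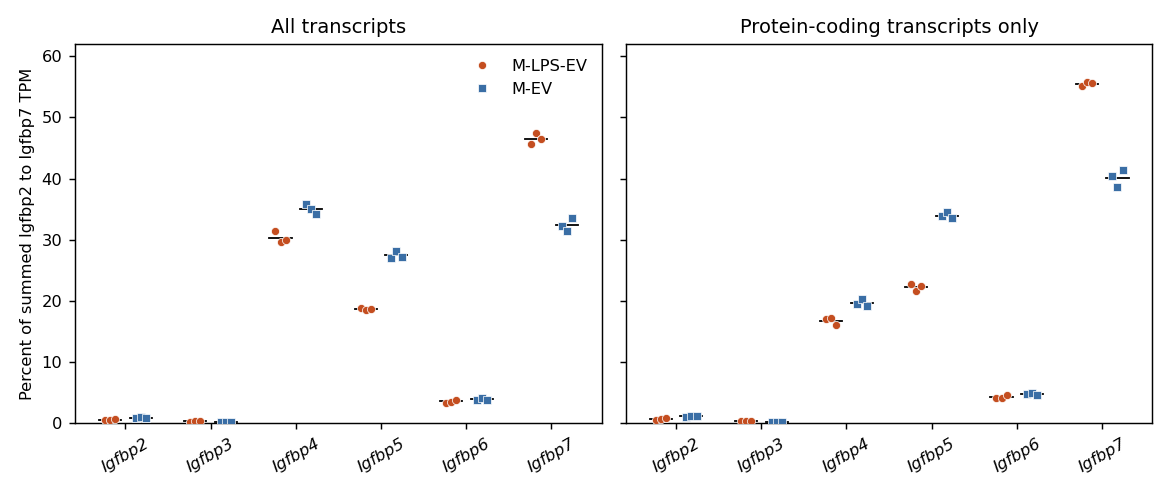
Percent of the summed Igfbp2 to Igfbp7 TPM held by each gene (vertical axis) in each library, for all transcripts (left) and for protein-coding transcripts (right); circles are M-LPS-EV, squares M-EV and lines group means. Igfbp7 has the larger share with M-LPS-EV and Igfbp5 the smaller share in both panels.

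Other genes of the system were counted in 6 lists that hold 69 genes, of which 64 were tested. There were 20 called higher and 18 lower, beside 16.4% and 15.2% of all tested genes. Of 8 genes listed as proteases that cut binding proteins or as inhibitors of these proteases, 4 were called higher and 2 lower. Among those called higher, Prss23 was 1.18-fold, at 98.9 ± 2.99 CPM with M-LPS-EV and 83.6 ± 1.6 CPM with M-EV (edgeR adjusted p = 4.2e-06). Its call ended against a change of at least 1.2-fold. Whether Prss23 cuts binding proteins was not checked here. Stc1, a stanniocalcin that inhibits the binding protein protease Pappa, had 157, 189 and 179 counts with M-LPS-EV, against 99, 73 and 73 counts with M-EV (edgeR log2 fold change 1.2 with SE 0.13 and adjusted p = 3.4e-08). Pappa2, a protease that cuts Igfbp3 and Igfbp5, stood at 2.81 ± 0.252 CPM with M-LPS-EV and 4.60 ± 0.956 CPM with M-EV (log2 fold change -0.71, edgeR adjusted p = 0.0017). Htra1, a serine protease known to cut Igfbp5, was 1.31-fold higher (136 ± 1.82 CPM with M-LPS-EV and 104 ± 4.46 CPM with M-EV), and Adam12, a metalloprotease known to cut Igfbp3 and Igfbp5, was 0.868-fold (21.2 ± 0.482 CPM with M-LPS-EV and 24.4 ± 0.857 CPM with M-EV), a call that ended on the TPM scale (limma adjusted p = 0.098). Pappa itself, the protease of Igfbp4, named after its values were seen, stood at 133 ± 3.68 CPM with M-LPS-EV and 134 ± 3.78 CPM with M-EV and was not called (log2 fold change -0.014, edgeR adjusted p = 0.79). Stc2, the more abundant stanniocalcin, named in the same way, was called higher at 1.05-fold (edgeR adjusted p = 0.042). It stood at 235 ± 6.09 CPM with M-LPS-EV and 224 ± 5.25 CPM with M-EV, and the groups overlapped.

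In the chain below the receptor, from adaptors to AKT, mTOR and FOXO, 9 of 31 genes were called higher, 7 lower and 15 not. Their median log2 fold change was -0.00049. Among all tested genes 16.4% were called higher and 15.2% lower. Grb14, an adaptor that binds activated insulin and IGF receptors and dampens their signal, differed most. It stood at 56.6, 55.2 and 57.5 CPM with M-LPS-EV, against 16.7, 18.0 and 18.4 CPM with M-EV (edgeR log2 fold change 1.68 with SE 0.048 and adjusted p = 1.4e-19), 3.19-fold. Its relative Grb10, an imprinted adaptor, was 0.903-fold (899 ± 6.00 CPM with M-LPS-EV and 995 ± 11.4 CPM with M-EV). Irs2, a docking protein that passes the receptor signal to PI3K, was 0.780-fold, at 29.7 ± 0.317 CPM with M-LPS-EV and 38.1 ± 1.38 CPM with M-EV. The transcription factor Foxo3, which AKT keeps out of the nucleus, was 1.24-fold higher, and Foxo4 was 0.792-fold.

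Growth hormone acts on cartilage in part through Igf1. In that list 5 of 8 genes were called higher and 2 lower, beside 16.4% and 15.2% of all tested genes. The receptor Ghr stood at 34.8, 33.2 and 31.8 CPM with M-LPS-EV, against 42.5, 43.5 and 45.0 CPM with M-EV (edgeR log2 fold change -0.39 with SE 0.045 and adjusted p = 1.4e-07). Socs2, a feedback inhibitor of the growth hormone receptor, was also lower, at 13.2 ± 1.19 CPM with M-LPS-EV and 20.3 ± 0.672 CPM with M-EV (log2 fold change -0.62, edgeR adjusted p = 1.2e-07). Socs3, a feedback inhibitor of cytokine receptors, was higher, at 39.1 ± 1.89 CPM with M-LPS-EV and 21.8 ± 0.926 CPM with M-EV (log2 fold change 0.85, edgeR adjusted p = 1.2e-12). The transducers Stat5a and Stat5b were 1.29-fold and 1.11-fold higher, and both calls ended on the TPM scale (limma adjusted p = 0.099 and 0.19); that of Stat5b ended under 9 of 18 alternatives, also without M-LPS-EV replicate 1, M-LPS-EV replicate 3 or M-EV replicate 3 (edgeR adjusted p = 0.062, 0.14 and 0.10).

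The list of imprinted genes and Igf2 mRNA-binding proteins held 9 genes, of which 5 were called lower and none higher. Over all tested genes 15.2% were called lower and 16.4% higher. The median log2 fold change of the list was -0.30, and that of the chondrocyte markers was -0.37. The 5 genes called lower are all known as imprinted genes. Zfp57, named after its values were seen, was not called (0.856-fold, edgeR adjusted p = 0.092). Cdkn1c, a cell cycle inhibitor, stood at 179, 177 and 193 CPM with M-LPS-EV, against 343, 326 and 335 CPM with M-EV (edgeR log2 fold change -0.87 with SE 0.028 and adjusted p = 2.1e-18). H19, the non-coding RNA beside Igf2 that is expressed from the maternal chromosome, stood at 11998 ± 286 CPM with M-LPS-EV and 13439 ± 94.6 CPM with M-EV (edgeR log2 fold change -0.16 with SE 0.015 and adjusted p = 1.7e-09). Plagl1, a zinc finger transcription factor, stood at 1395 ± 19.8 CPM with M-LPS-EV and 1812 ± 8.42 CPM with M-EV (log2 fold change -0.38, edgeR adjusted p = 1.2e-15). Meg3, a non-coding RNA, and Dlk1, a membrane protein of the same imprinted cluster, were 0.703-fold and 0.814-fold. The mRNA-binding proteins Igf2bp1, Igf2bp2 and Igf2bp3, named after their values were seen, were not called (edgeR adjusted p = 0.060, 0.58 and 0.94).

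The CCN proteins carry a domain like that of the binding proteins. Of 6 tested, 2 were called higher and 2 lower, beside 16.4% and 15.2% of all tested genes. Ccn2, a matrix-associated growth factor of chondrocytes, stood at 1032 ± 19 CPM with M-LPS-EV and 1494 ± 28.0 CPM with M-EV (edgeR log2 fold change -0.53 with SE 0.019 and adjusted p = 1.1e-17), and Ccn4 was 0.786-fold. Ccn5 and Ccn3 were both 1.28-fold higher, and Ccn6 was not called (edgeR adjusted p = 0.43). Of the family's remaining genes, the insulin receptor Insr and Igfals, which holds the ligand complex in blood, were tested and not called (edgeR adjusted p = 0.15 and 0.62), and Ins1, Ins2 and Insrr had 0 counts in every library.

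**Figure D5:**
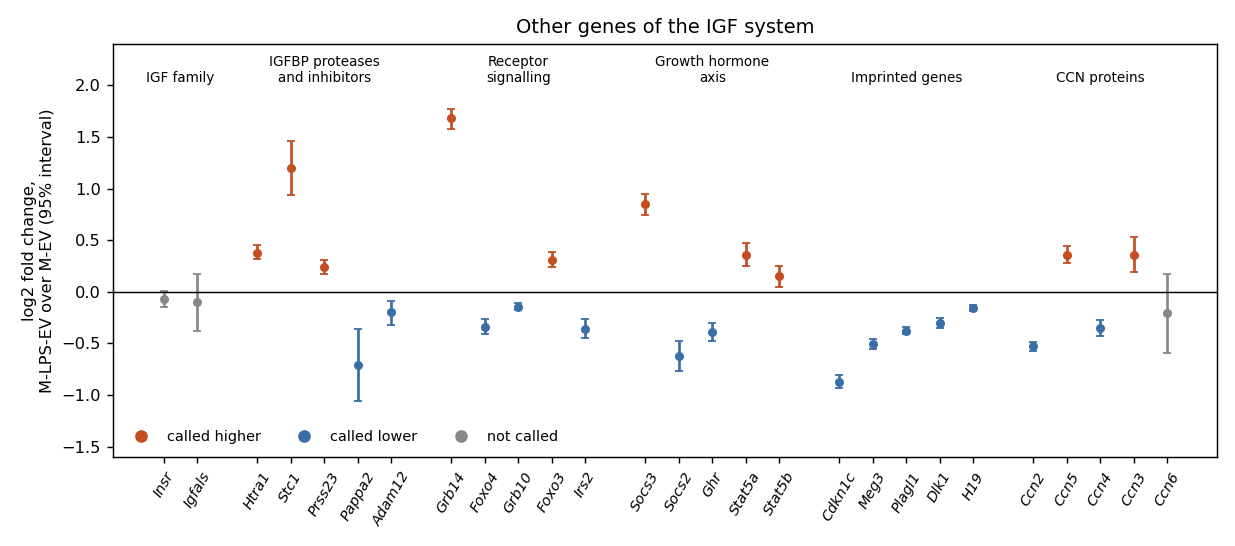
Log2 fold change of M-LPS-EV over M-EV (vertical axis) with 95% intervals for up to 5 genes of each of 6 lists, those with the smallest p, coloured by call. Grb14 and Stc1 stand highest, and the 5 imprinted genes shown, picked by smallest p, all lie below 0.

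Genes of most similar pattern over the 6 libraries were sought among the 9045 or 9046 others with a mean of at least 10 CPM, by Pearson's r of log2 CPM, as a description. For Igfbp5 they were Matn1 (r = 0.9995), Acan (r = 0.9994) and Scd1 (r = 0.9991), of which Matn1 and Acan are cartilage matrix genes. For Igf2 they were Col9a2 (r = 0.9999), a chain of cartilage collagen IX, Elovl6 (r = 0.9990) and Gfpt1 (r = 0.9989). For Igfbp3 they were Stk24, Smc2 and Slc18b1 (r = 0.9989, 0.9967 and 0.9963). Igfbp3 itself lay below 10 CPM, at means of 2.30 CPM with M-LPS-EV and 1.39 CPM with M-EV. Counting error may therefore shape its matches. The points fall into the 2 groups, so these values mainly describe the difference between them.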

How the data were processed

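Titles gave each library's group and replicate number. STAR, RSEM, DESeq2 and mm10 are named in the submitters' processing notes, with versions, strand setting and annotation not given in the sources used here. The authors deposited 1 table of transcripts per library with an expected count (RSEM's estimate, which need not be whole), TPM scaled by effective length, and each transcript's percent of its gene, per the file headers. Effective lengths were also deposited. Symbols, types and coordinates come from GENCODE M21 (GRCm38), which held 99.07% of the transcript identifiers.

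Expected counts were summed per gene and rounded. Genes were filtered with filterByExpr (minimum count 10, total 15), scaled by TMM and tested with edgeR 4.0.16 (R 4.3.3, quasi-likelihood, group as the only term). CPM use TMM-scaled library sizes, except the summed marker levels, which use library totals. SD are over 3 libraries. Usage was tested with diffSpliceDGE on transcripts that held 10% or more of the gene's TPM. RSEM's error in sharing reads between transcripts is not modelled. The tests were tried on simulated counts.

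All 10 genes were described. Of each other list up to 5 genes with the smallest p were named; genes outside that rule are marked. Similar patterns were sought for the gene with the highest TPM and those whose edgeR estimates, as reported, were highest and lowest; other settings can change that choice. Members and lists were chosen with earlier results of these data known. Alternatives were RLE and upper-quartile scaling, no filter, a filter at a mean count of 50, offsets for effective length, the replicate block, each library left out, DESeq2 1.42.0, limma 3.58.1 (voom, and trend on log2(TPM + 1) and log2(TPM + 0.1)), a test against 1.2-fold and, added after the data were seen, protein-coding transcripts only. Depth was 20239626 to 25712667 expected counts per library.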

Additional observations from a re-analysis of the deposited data

How the results depend on the processing

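Under the 17 or 18 alternatives run for each of the 10 genes, the calls of Igfbp5 and Igfbp7 held in all, and those of Igf2, Igf2r and Igfbp3 in all but the test against 1.2-fold. Igf1 and Igfbp3 could not be tested at a mean count of at least 50. In all, 4614 genes were called. The total was 2868 with effective length offsets, 2622 and 2619 by limma on log2(TPM + 1) and log2(TPM + 0.1), and 1137 against a change of at least 1.2-fold. Each total is over all genes tested in that setting, and its overlap with the 4614 was not counted. Against a change of at least 1.2-fold 2 of the 10 genes and 12 of the 64 other tested genes were called, in place of 7 and 38. Leaving out 1 library gave 3978 to 4317 genes in all, 5 to 7 of the 10 genes and 35 to 41 of the others. The sign of 3 uncalled genes turned. Igfbp4 was at 0.0013 without M-LPS-EV replicate 3, 0.0015 without M-EV replicate 1 (-0.036 to 0.0015 with each library left out) and 0.0021 in protein-coding transcripts. Igfbp6 was at -0.0088 with upper-quartile scaling, -0.00079 with no filter, -0.035 and -0.016 without replicate 3 of M-LPS-EV and of M-EV (-0.035 to 0.039 with each library left out), and -0.0082 and -0.0086 on the TPM scales. Insr was at 0.019 with length offsets and 0.0045 and 0.0049 on the TPM scales.

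The difference in Igfbp7's share was 8.51 percentage points in CPM, 15.4 in protein-coding transcripts and 13.5 to 14.6 with 1 library left out. That of Igfbp5 was -11.1, -11.7 and -9.05 to -8.44, and -5.79 without Igfbp7. The difference in the summed level was -52.5 TPM without Igfbp7, -77.9 in CPM and 36.7 to 47.4 TPM with 1 library left out. The difference in the ratio of ligands to binding proteins was -2.92; it was 0.297 without Igfbp7, -0.416 in CPM and -3.03 to -2.7 with 1 library left out. Usage was called for 10 genes, for 77 with all transcripts, for 51 by limma's diffSplice and for 8 to 23 with 1 library left out, where leaving out M-LPS-EV replicate 2 gave 18 and M-LPS-EV replicate 3 gave 23.

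Libraries with the same replicate number did not deviate together (correlations of their deviations from the group means of -0.144, -0.0632 and 0.0431). No pairing by number was thus seen, which does not exclude one with so few libraries. With the replicate block 4519 genes were called in all, 6 of the 10 genes, with Igf1r at an edgeR adjusted p of 0.054, and 0 genes for usage by diffSpliceDGE (106 at an unadjusted p under 0.05). The causes of these changes were not tested. Depth limits what can be said of Igf1, Igfbp2 and Igfbp3, with 28 to 76 counts in each library.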
